A study of Homo sapiens with 2 samples.

Results

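The genes of cholesterol and fatty acid synthesis were examined in 2 RNA sequencing libraries of 468, a human breast cancer cell line with epithelioid morphology. One library came from cells labelled as a THAP7-AS1 knockdown, made by transfecting a Smart Silencer against this antisense RNA, and the other from cells labelled as an si-NC control. Both were grown in L15 medium with 10% serum, and the cells were taken after 48 h. The treatment field of the labels gives the silencer for the control as well, so the groups rest on the genotype field. The genes were taken by name from a list of 42 genes of sterol synthesis, fatty acid synthesis and their shared regulators. Of these, 41 had a value in both libraries, among 13017 genes with values in all. NPC1L1, a sterol transporter of the intestine, was not analysed here, nor were other enzymes of these pathways outside the list. The list was not chosen by measured values, but earlier results from the same libraries were known when it was drawn up.

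Cells make cholesterol from acetyl-CoA through mevalonate and squalene, and fatty acids from acetyl-CoA through malonyl-CoA. Both routes are controlled by the sterol regulatory element-binding proteins (SREBPs), transcription factors held in the endoplasmic reticulum membrane by the escort SCAP and the retention proteins INSIG1 and INSIG2. When membrane sterol is low, SCAP carries the SREBPs to the Golgi, where they are cut free and enter the nucleus. Breast cancer cells commonly express fatty acid synthase and its partners at high levels.

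Each value is an FPKM, the fragments of a gene per kilobase of its length and scaled to the mapped fragments of the library, so levels can be set side by side between genes. Summed over genes, FPKM came to 213442 for the knockdown and 213888 for the control. Where a pair of values follows, the knockdown library stands first. The lowest values, of 14 and 10 single-transcript genes within a set window, corresponded to an estimated 11100000 and 10900000 fragments. Mitochondrially encoded genes took 14.6% of the knockdown sum and 15.8% of the control sum. With FPKM rescaled without them, 27 of the 38 genes kept below were lower in the knockdown library instead of 26, and the log2 ratio of MSMO1, the lowest, was -0.80 instead of -0.78. Of 8 epithelial markers 7 were at 1 FPKM or more on average, with EPCAM at 232 and 224 FPKM in the knockdown and control libraries and KRT18 at 201 and 166 FPKM. CDH1 was at 12.4 and 17.1 FPKM, ESRP1 at 14.6 and 16.6 FPKM and CLDN4 at 0.233 and 0.303 FPKM, so the epithelial markers lay on both sides. Of 5 basal epithelial keratins 4 were at 1 FPKM or more, and the list summed to 177 and 158 FPKM, with KRT14 at 5.94 and 3.25 FPKM and KRT16 at 28.8 and 20.9 FPKM. The part of these marker differences in the results was not tested. Fibroblast markers summed to 0.878 and 0.874 FPKM and adipocyte markers to 0.956 and 0.891 FPKM. The 8 epithelial markers summed to 1948 and 1832 FPKM. The leukocyte genes CD14 and LYZ summed to 11.5 and 10.9 FPKM, and the endothelial gene KDR was at 1.07 and 1.15 FPKM. THAP7-AS1 itself was not analysed here, so the extent of its knockdown was not checked. THAP7, on the opposite strand of the same locus, was at 8.38 FPKM in the knockdown and 2.71 FPKM in the control library, and reads of the 2 genes cannot be told apart where strand is unknown.

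There is 1 library per group, so no difference below has a replicate check or a test, and each describes these 2 libraries. In bulk RNA, fewer cells expressing a gene and less RNA per cell cannot be told apart. Differences are given as log2((knockdown FPKM + 1)/(control FPKM + 1)), called the log2 ratio, which is negative where the knockdown library was lower and understates the change of low genes. Rules of size were 2-fold and 1.5-fold, on genes whose mean over the libraries reached 1 FPKM. That filter kept 10925 genes, 38 of the 41 members among them. The error that counting fragments alone would give was put around the plain ratio of FPKM, without the added 1, as a 95% exact (Clopper-Pearson) interval. It rests on the estimated depth and covers counting error only.

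Expression of the lipid synthesis genes was nearly the same in both libraries. None of the 38 members was 2-fold higher or 2-fold lower, where 0.604% and 0.668% of all genes were. At 1.5-fold, 0 members were higher and 1 was lower, the sterol enzyme gene MSMO1, against 2.98% and 2.46% of all genes. The 1 of 38 is a share of 2.63% and lies near that background. Of the 38 members 34 (89.5%) differed by less than 1.25-fold, compared with 81.4% of all genes. These shares are not matched for level. A mean of 5 FPKM was reached by 31 of the 38 members and by 6589 of the 10925 genes. Ratios spread less at higher levels. The standard deviation estimated from the median absolute deviation was 0.25 between 1 and 2 FPKM. Between 50 and 100 FPKM it was 0.17. The part of level in this contrast was not tested. The median log2 ratio was -0.05 for the members and 0.02 for all genes, with 26 members below 0 (68.4%) and 46.9% of all genes below 0. Together the 41 members held 0.316% of all FPKM with the knockdown and 0.337% in the control.

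**Figure D1:**
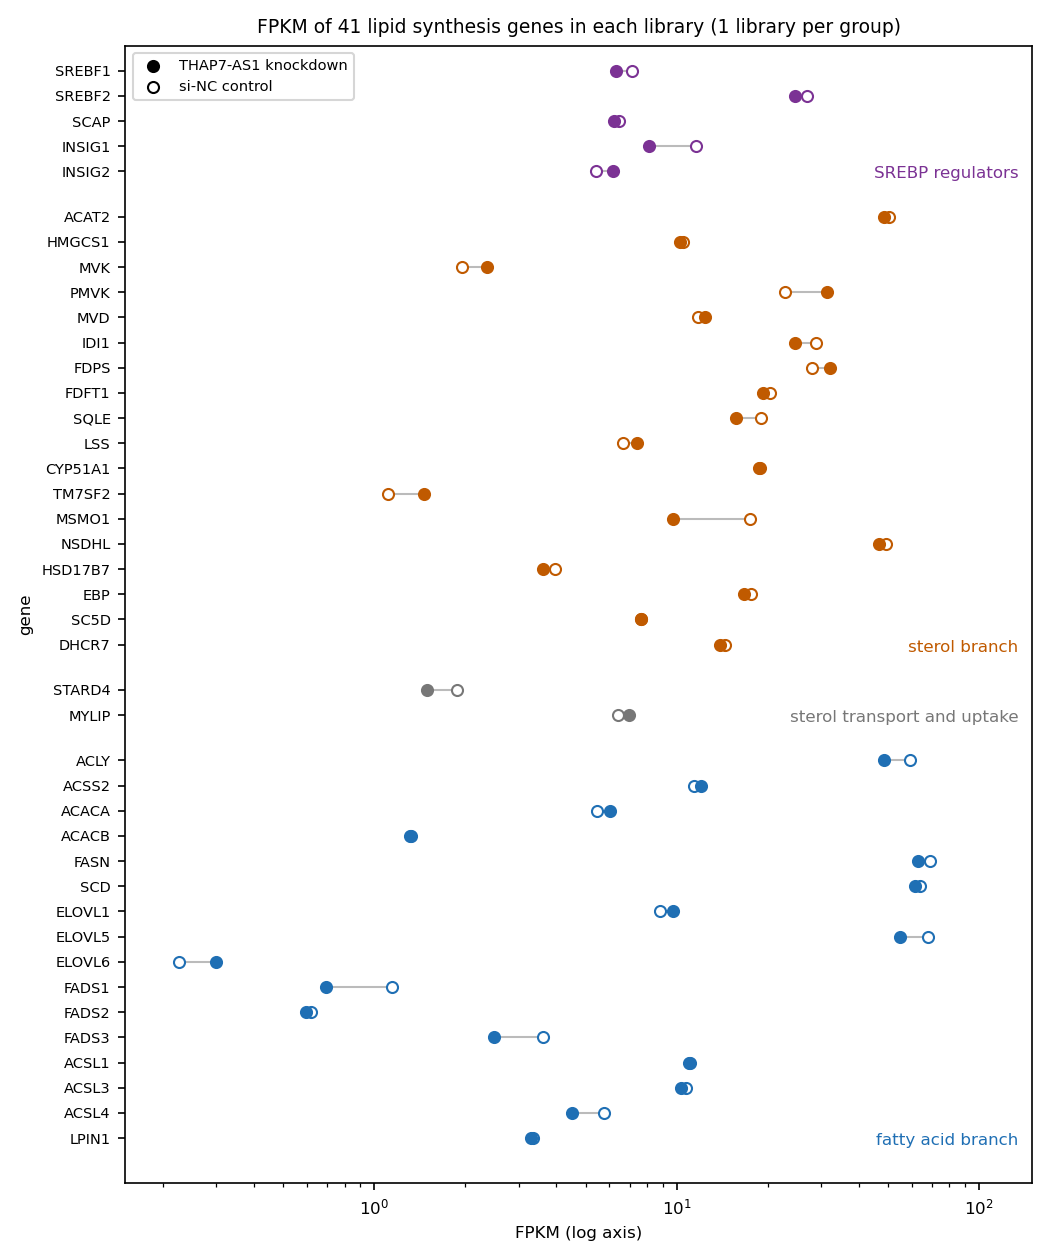
FPKM of the 41 measured genes, on a log axis, in the knockdown library (filled points) and the control library (open points), grouped by branch and joined by a grey line. Most pairs of points nearly coincide; the widest separation among genes above 5 FPKM is that of MSMO1, at 9.75 and 17.5 FPKM.

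The reference promoters of 4 members are shown to give the sequence before the genes at the ends of the range and before a regulator; no result below rests on them. MSMO1 and INSIG1 had the lowest log2 ratios of the 38 kept members, PMVK had the highest, and SREBF2 is the master regulator of the sterol branch. Each is the stretch of 250 bases before the annotated start, 5′ to 3′ on the strand of the gene, from RefSeq on GRCh38.p14: MSMO1 on the plus strand at chr4:165327419-165327668, INSIG1 on the plus strand at chr7:155297628-155297877, PMVK on the minus strand at chr1:154936720-154936969 and SREBF2 on the plus strand at chr22:41832855-41833104. The expression tables themselves use hg19 and give no coordinates. Capitals mark matches on either strand to the sterol regulatory element TCACNCCAC, the CCAAT box CCAAT (read ATTGG on the other strand), the GC box GGGCGG and the E-box CACGTG; neighbouring GC boxes can overlap each other.
MSMO1: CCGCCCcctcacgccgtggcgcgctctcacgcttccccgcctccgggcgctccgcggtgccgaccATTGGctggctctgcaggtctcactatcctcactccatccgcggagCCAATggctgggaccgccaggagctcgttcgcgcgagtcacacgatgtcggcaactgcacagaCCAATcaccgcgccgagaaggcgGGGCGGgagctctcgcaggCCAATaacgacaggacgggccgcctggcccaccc
INSIG1: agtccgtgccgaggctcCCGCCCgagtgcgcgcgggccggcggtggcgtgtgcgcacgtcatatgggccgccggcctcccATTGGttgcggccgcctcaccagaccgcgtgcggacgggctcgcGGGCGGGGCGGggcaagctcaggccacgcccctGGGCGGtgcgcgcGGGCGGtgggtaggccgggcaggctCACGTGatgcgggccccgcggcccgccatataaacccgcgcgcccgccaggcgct
PMVK: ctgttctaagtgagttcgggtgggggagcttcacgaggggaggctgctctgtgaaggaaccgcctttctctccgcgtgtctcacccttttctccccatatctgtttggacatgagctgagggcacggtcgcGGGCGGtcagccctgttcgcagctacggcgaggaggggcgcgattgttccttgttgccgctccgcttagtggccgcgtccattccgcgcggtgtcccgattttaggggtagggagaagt
SREBF2: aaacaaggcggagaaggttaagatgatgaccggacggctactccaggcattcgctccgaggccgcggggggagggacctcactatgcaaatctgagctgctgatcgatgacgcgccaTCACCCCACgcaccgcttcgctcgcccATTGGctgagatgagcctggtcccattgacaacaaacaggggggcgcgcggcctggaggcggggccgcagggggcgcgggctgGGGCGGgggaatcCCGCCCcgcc

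The MSMO1 promoter holds 4 CCAAT boxes and 2 GC boxes, while that of INSIG1 holds 1 CCAAT box, 5 GC boxes and 1 E-box. The PMVK promoter holds 1 GC box and 0 of the other motifs. The SREBF2 promoter holds 1 sterol regulatory element, at positions -133 to -125 from the start, with 1 CCAAT box and 2 GC boxes. RefSeq windows, running from 250 bases before to 50 bases after a start, were found for 38 of the 42 genes, and ACAT2, FASN, FDFT1 and SQLE had none. A sterol regulatory element of these letters stood in a window of 2 of the 38 genes (5.26%), SREBF2 and ACSL1, and in 1.39% of all 27305 genes with windows. CCAAT boxes stood in windows of 29 of the 38 (76.3%), against 39.7% of all genes and 43.9% of the 8858 matched genes whose mean reached 1 FPKM. By branch, 13 of 15 sterol genes, 11 of 15 fatty acid genes and 2 of 5 SREBP regulators had one. Counted over single windows, since a gene can have several starts, the shares were 58.9% of 56 member windows and 34.6% of all 35116 windows. GC boxes stood at 35 of the 38 genes (92.1%) and at 78.7% of the expressed genes, and E-boxes at 5 (13.2%) and 12.7%. These matches describe the reference sequence. The 27 kept members with a CCAAT box had a median log2 ratio of -0.05 and the 7 without one -0.01.

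The SREBP regulators had the lowest median of the groups, a log2 ratio of -0.13 over 5 genes, with 4 of 5 below 0. SREBF1, whose product mainly drives fatty acid genes, was at 6.28 FPKM with the knockdown and 7.10 FPKM in the control (log2 ratio -0.15). SREBF2, whose product mainly drives sterol genes, was at 24.7 and 27.0 FPKM (log2 ratio -0.13). Its transcript was the more abundant of the 2 factors in both libraries. SCAP was at 6.21 and 6.46 FPKM (log2 ratio -0.05).

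The INSIG genes lay on opposite sides of 0. INSIG1, itself a classical target of the SREBPs, was at 8.13 FPKM with the knockdown and 11.6 FPKM in the control. Its log2 ratio of -0.46 ranked 450th from the lowest among 10925 genes, within the lowest 4.12%. From an estimated 273 and 381 fragments, the plain log2 ratio of -0.51 had a counting interval from -0.74 to -0.28. INSIG2, which is not a classical SREBP target, was at 6.16 and 5.43 FPKM (log2 ratio 0.16), and its counting interval from -0.14 to 0.50 held 0. The knockdown library thus held less INSIG1, while a difference in INSIG2 was not detectable at this depth.

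The sterol branch, 18 enzyme genes from acetyl-CoA to cholesterol, had a median log2 ratio of -0.05, with 7 genes above 0 and 11 below. Its summed level was 323 FPKM with the knockdown and 331 FPKM in the control, a log2 ratio of the sums of -0.04. The 17 genes other than MSMO1, set apart after its value was seen, summed to 313 and 314 FPKM. The medians of the early enzymes, up to farnesyl diphosphate, and of the late enzymes, from squalene synthase on, differed in sign. The 7 early genes had a median of 0.08 with 4 above 0, and the 11 late genes a median of -0.07 with 3 above 0. Their ranges overlapped, from -0.23 to 0.45 among the early genes and from -0.78 to 0.22 among the late ones. The early genes summed to 162 and 155 FPKM, the late genes to 161 and 177 FPKM. The excess of PMVK alone was larger than the difference between the early sums. The early median is the value of MVD, whose counting interval from -0.18 to 0.35 held 0. A split of the pathway into early and late steps was not tested.

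Among the early enzymes, the thiolase gene ACAT2 was at 48.6 FPKM with the knockdown and 50.5 FPKM in the control. HMGCS1, the cytosolic HMG-CoA synthase gene and a standard SREBP target, was at 10.2 and 10.5 FPKM. The log2 ratios of these first steps, -0.05 and -0.04, were close to 0. The mevalonate kinase gene MVK was at 2.35 and 1.96 FPKM. PMVK, which encodes phosphomevalonate kinase, was at 31.6 FPKM with the knockdown and 22.9 FPKM in the control. PMVK had the highest log2 ratio of the kept members, 0.45, and ranked 615th from the top of all genes (5.63%). Its counting interval ran from 0.26 to 0.68 around a plain log2 ratio of 0.46, from an estimated 450 and 320 fragments. The decarboxylase gene MVD was at 12.4 and 11.7 FPKM (log2 ratio 0.08). The next 2 enzymes differed in opposite directions. The isomerase gene IDI1 was at 24.6 and 28.9 FPKM (log2 ratio -0.23), and FDPS, the farnesyl diphosphate synthase gene, at 32.1 and 28.02 FPKM (log2 ratio 0.19). GENCODE release 29 names 8 pseudogenes after FDPS, which makes its value less certain.

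Among the late enzymes, the squalene synthase gene FDFT1 was at 19.3 FPKM with the knockdown and 20.4 FPKM in the control (log2 ratio -0.08). SQLE, the gene of squalene epoxidase, a rate-limiting enzyme of the route, was at 15.7 and 19.1 FPKM (log2 ratio -0.27). The lanosterol synthase gene LSS was at 7.39 and 6.64 FPKM (log2 ratio 0.14). The lanosterol demethylase gene CYP51A1 followed with almost equal values, 18.8 and 18.9 FPKM. TM7SF2, a sterol reductase gene, was the lowest of the branch at 1.46 and 1.11 FPKM, from an estimated 28 and 21 fragments. At this depth its difference was not detectable.

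MSMO1 stood apart from the rest of the branch. It encodes a methylsterol oxidase that takes part in the removal of methyl groups from lanosterol-derived sterols. Its level was 9.75 FPKM with the knockdown and 17.5 FPKM in the control, a log2 ratio of -0.78 or 1.72-fold lower. MSMO1 ranked 140th from the lowest of 10925 genes, within the lowest 1.28%, and its ratio was 3.86 times the standard deviation of single genes between 10 and 20 FPKM, which was 0.20 when estimated from the median absolute deviation (MAD-based SD). An estimated 246 and 434 fragments gave a plain log2 ratio of -0.84 with a counting interval from -1.08 to -0.62. The interval lay wholly below that of SQLE, the next lowest of the branch, which ran from -0.45 to -0.11. Of the other sterol genes, HSD17B7 alone, from an estimated 48 and 52 fragments, had an interval wide enough to overlap it, from -0.74 to 0.45.

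The enzymes that work with MSMO1 in the same demethylation complex were close to equal in the libraries. NSDHL, the sterol dehydrogenase gene, was at 46.9 FPKM with the knockdown and 49.3 FPKM in the control (log2 ratio -0.07). HSD17B7, the ketoreductase gene, was at 3.62 and 3.97 FPKM (log2 ratio -0.10), and GENCODE names 2 pseudogenes after it. The final steps were flat as well. The isomerase gene EBP was at 16.7 and 17.7 FPKM and the desaturase gene SC5D at 7.62 FPKM in both. DHCR7, a reductase gene of the last part of the route, was at 13.9 and 14.5 FPKM. Of the proteins that handle finished sterol, the transfer protein gene STARD4 was at 1.499 and 1.88 FPKM, and MYLIP, whose product marks lipoprotein receptors for degradation, at 6.95 and 6.42 FPKM.

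**Figure D2:**
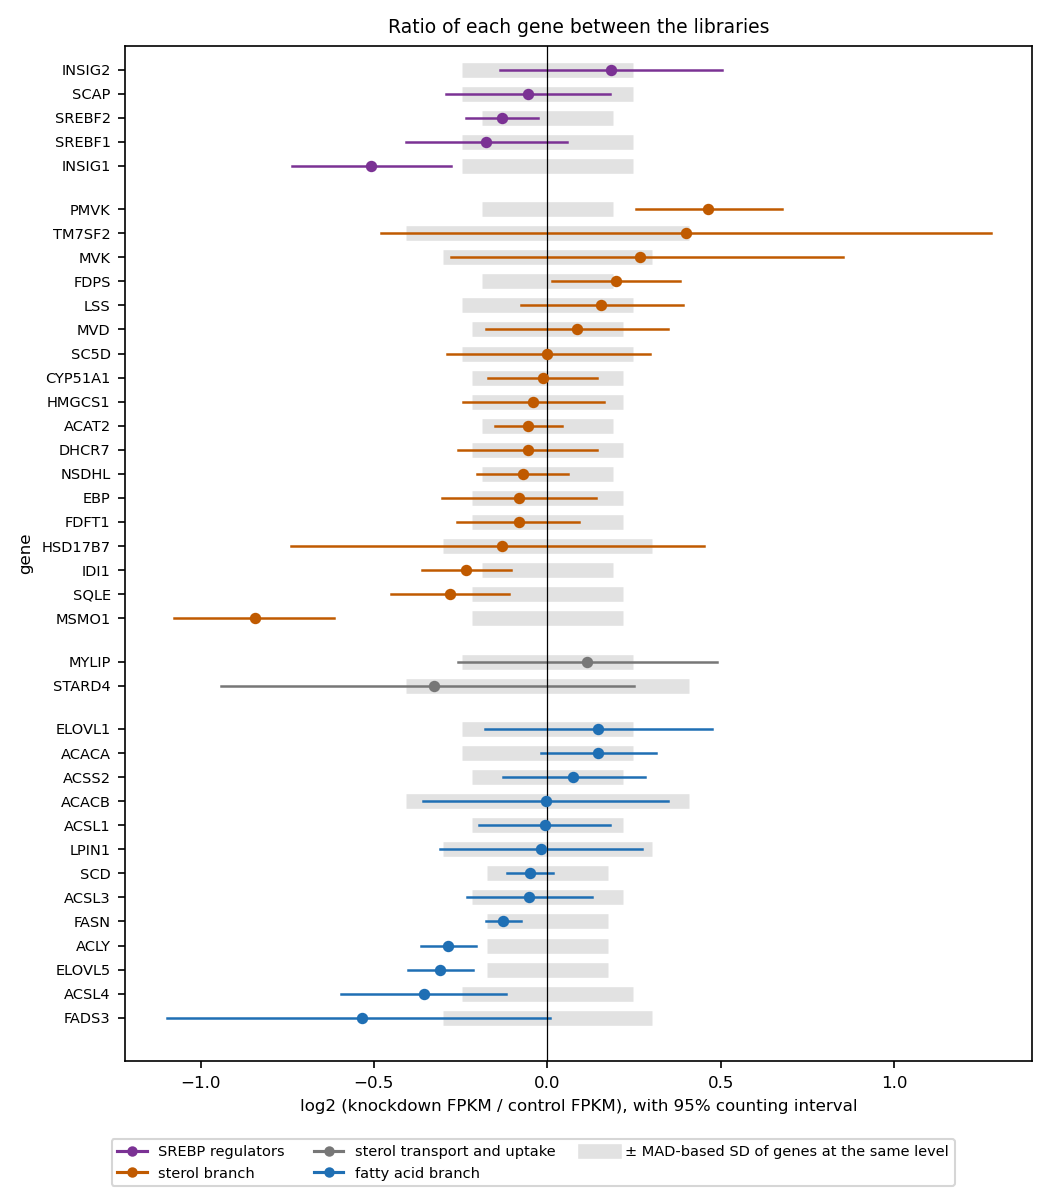
Plain log2 ratio of knockdown to control FPKM for the 38 genes whose mean reached 1 FPKM (points, by branch), with 95% counting intervals (lines) and the MAD-based SD of all genes at the same level to either side of 0 (grey bars). MSMO1, with an interval from -1.08 to -0.62, lies lowest, PMVK lies highest, and most other intervals cross 0.

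The fatty acid branch had a median log2 ratio of -0.05 over 13 kept genes, of which 10 were below 0. It held the most abundant members. The summed level of its 16 measured genes was 291 FPKM with the knockdown and 324 FPKM in the control, a log2 ratio of the sums of -0.15. Of the difference of 32.9 FPKM, ELOVL5, ACLY and FASN made up 29.6 FPKM, so the lower sum came mainly from 3 abundant genes.

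FASN, the fatty acid synthase gene, had the highest mean of all members, at 63.0 FPKM with the knockdown and 68.8 FPKM in the control, a log2 ratio of -0.13. Its mean exceeded that of 96.6% of the 13017 genes. ACLY, which makes cytosolic acetyl-CoA from citrate, was at 48.6 and 59.3 FPKM (log2 ratio -0.28). From an estimated 2342 and 2804 fragments its plain log2 ratio of -0.29 had a counting interval from -0.37 to -0.21. The other acetyl-CoA source, the acetate-using synthetase gene ACSS2, lay slightly on the other side at 12.04 and 11.4 FPKM. The acetyl-CoA carboxylase genes, which make malonyl-CoA, were at 6.03 and 5.45 FPKM for ACACA and 1.32 FPKM in both libraries for ACACB, the isoform linked to the control of fatty acid oxidation.

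Among the desaturases, SCD, which puts the double bond into oleate and palmitoleate, was at 61.7 FPKM with the knockdown and 63.9 FPKM in the control (log2 ratio -0.05). The FADS family was far lower. FADS3, a desaturase gene, was at 2.49 and 3.61 FPKM (log2 ratio -0.40), the third lowest of the kept members. Its counting interval, from -1.10 to 0.01, just held 0. FADS1 and FADS2, whose products make long polyunsaturated fatty acids, were under the mean of 1 FPKM, at 0.693 and 1.15 FPKM for FADS1 and 0.595 and 0.618 FPKM for FADS2. FADS1 rested on an estimated 35 and 57 fragments. It shares exon bases with FADS2 on the opposite strand, and their reads cannot be told apart there. FADS2 also shares 49 exon bases on the same strand with FEN1, which was at 56.2 FPKM with the knockdown and 60.5 FPKM in the control. The part of FEN1 reads in the low FADS2 values was not tested.

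Among the elongases, ELOVL5, which extends polyunsaturated fatty acids, was at 55.0 FPKM with the knockdown and 68.1 FPKM in the control. Its log2 ratio of -0.30 stood beside a plain ratio whose counting interval ran from -0.40 to -0.22. ELOVL1, which extends very long saturated chains, was at 9.75 and 8.80 FPKM (log2 ratio 0.13). ELOVL6, which extends palmitate, was under the filter at 0.299 and 0.225 FPKM. Of these 3 elongases, ELOVL5, the abundant one, was lower in the knockdown library.

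The acyl-CoA synthetases activate free fatty acids. ACSL1 was at 11.02 FPKM with the knockdown and 11.1 FPKM in the control, and ACSL3 at 10.4 and 10.8 FPKM. ACSL4, which prefers arachidonate and is known for its role in ferroptosis, was at 4.50 and 5.76 FPKM (log2 ratio -0.30) with a counting interval of the plain ratio from -0.59 to -0.12. The 3 synthetases thus lay below 0, by amounts that were within counting error for ACSL1 and ACSL3. LPIN1, a phosphatidate phosphatase gene of glycerolipid synthesis, was at 3.30 and 3.34 FPKM.

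Set side by side, the 3 groups overlapped. Log2 ratios ran from -0.78 to 0.45 in the sterol branch, from -0.40 to 0.13 in the fatty acid branch and from -0.46 to 0.16 among the SREBP regulators. The sterol and fatty acid medians, both -0.05, were alike, and the regulators' median of -0.13 rests on 5 genes. Below 0 were 61.1% of the sterol genes, 76.9% of the fatty acid genes and 80% of the regulators. No test of the difference between these groups is possible with 1 library each. The counting interval lay above 0 in 2 of 38 members, PMVK and FDPS, where 17.2% of 10869 genes with a known length had such an interval. It lay below 0 in 9 of 38 members (23.7%), where 15.8% of all genes did: SREBF2, INSIG1, IDI1, SQLE, MSMO1, ACLY, FASN, ELOVL5 and ACSL4. Resting on the fragments of 1 library each, this interval does not measure the spread between cultures. Intervals are narrower where fragments are many, and these shares are not matched for level.

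**Figure D3:**
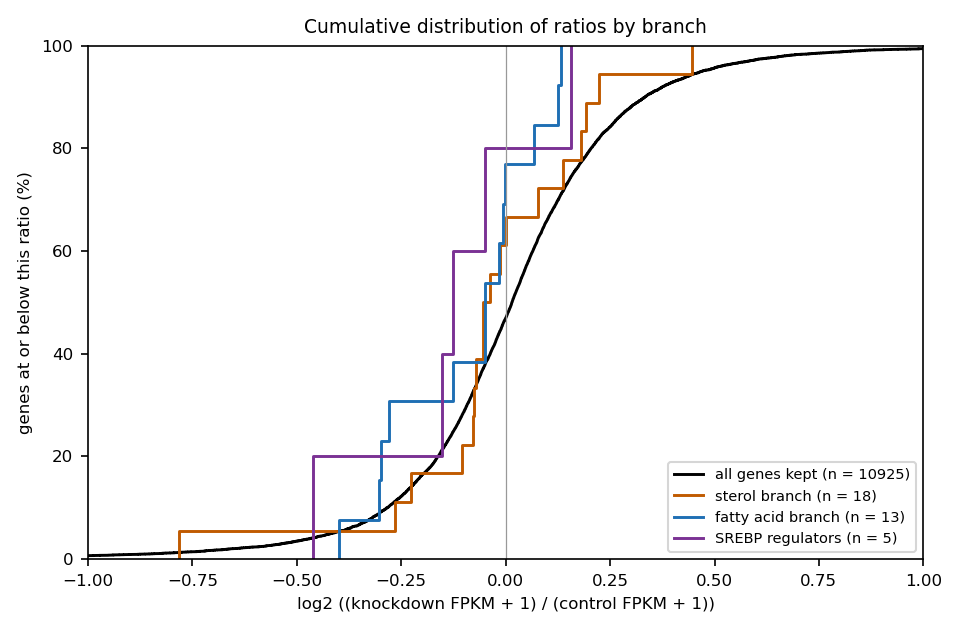
Cumulative share of genes (vertical axis, percent) at or below each log2 ratio for all 10925 genes kept (black), the sterol branch, the fatty acid branch and the SREBP regulators. The 3 coloured curves lie mostly to the left of the black one and cross one another; the sterol curve has its lowest step at -0.78, MSMO1.

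Neighbouring lipid pathways were described through 10 lists of 192 genes, of which 166 reached a mean of 1 FPKM. Their median log2 ratio was 0.01, with 86 above 0 and 80 below. At 1.5-fold, 3 of the 166 were higher and 6 lower, where 2.98% and 2.46% of all genes were. With the added 1, only CPT1B, a muscle-type carnitine palmitoyltransferase of fatty acid oxidation, was 2-fold apart. CPT1B was at 1.71 FPKM with the knockdown and 0.324 FPKM in the control, from an estimated 50 and 9 fragments. Without the added 1, MBTPS2, FNTB and AGPAT5, described below, were also over 2-fold apart, each lower in the knockdown library. The median of the fatty acid oxidation list was 0.04 over 23 genes, with 13 above 0 and 10 below. ACADSB, an acyl-CoA dehydrogenase gene of the same list, was at 2.59 and 1.44 FPKM (log2 ratio 0.56), under 1.5-fold with the added 1. Its plain log2 ratio had a counting interval from 0.48 to 1.23. On the other side of 0 in that list were ECI2 and ACAA2, among others, with log2 ratios of -0.43 and -0.39.

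Genes for SREBP processing and the sterol-regulated degradation of enzymes had a median of -0.06, with 10 of 21 above 0. MBTPS2, the protease that makes the second of the cuts that free the SREBPs, was at 1.49 FPKM with the knockdown and 3.11 FPKM in the control (log2 ratio -0.72). From an estimated 74 and 151 fragments, its plain log2 ratio had a counting interval from -1.48 to -0.64. TRIB3, a pseudokinase gene that is also a target of the ATF4 stress response, was at 33.2 and 20.7 FPKM (log2 ratio 0.66). ERLIN1, whose product takes part in degradation at the endoplasmic reticulum, was at 7.54 and 5.68 FPKM.

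The list of other elongation and activation genes had the lowest median of the 10, -0.22, with 4 of 14 above 0 and 3 at least 1.5-fold lower, where 2.46% of all genes were. HSD17B12, the ketoacyl-CoA reductase gene of the elongation cycle, was at 2.28 FPKM with the knockdown and 4.52 FPKM in the control. HACD2, a dehydratase gene of the same cycle, was at 14.3 and 23.6 FPKM, and the desaturase gene SCD5 at 6.33 and 10.04 FPKM. Their log2 ratios were -0.75, -0.68 and -0.59. The list also holds 3 elongases of long and very long chains, all lower in the knockdown library by less than 1.5-fold. ELOVL2 was at 2.62 and 3.46 FPKM (log2 ratio -0.30), ELOVL4 at 4.15 and 5.34 FPKM (log2 ratio -0.30) and ELOVL7 at 1.45 and 2.23 FPKM (log2 ratio -0.40); they were added beside the named genes after their values were seen. Of the other kept cycle genes of the list, HACD3 lay on the other side, at 22.5 and 20.1 FPKM (log2 ratio 0.15). TECR was at 17.8 and 19.9 FPKM (log2 ratio -0.15) and HACD1 at 3.25 and 4.54 FPKM (log2 ratio -0.38). Among the elongases that are members, ELOVL5 was lower, and ELOVL1 and ELOVL6 were not.

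The list of other mevalonate products had a median of 0.06, with 10 of 17 above 0. In it FNTB, the gene of the farnesyltransferase beta subunit, was at 2.16 FPKM with the knockdown and 5.03 FPKM in the control (log2 ratio -0.93). ICMT, which methylates prenylated proteins, was at 12.9 and 9.44 FPKM, and COQ2, a gene of ubiquinone synthesis, at 14.2 and 11.1 FPKM. These named genes, picked for large ratios, lay on both sides of 0. Glycerolipid and lipid droplet genes had a median of -0.005 over 16 genes, with 8 above 0 and 8 below. Among them the acyltransferase gene AGPAT5 was at 4.54 and 9.97 FPKM (log2 ratio -0.99), and HILPDA had a log2 ratio of 0.34.

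The remaining lists had medians near 0. Sterol movement and esterification genes had a median of -0.02 over 20 genes, with 9 above 0 and 11 below. There the sterol exchange protein genes OSBPL11 and OSBP had log2 ratios of 0.41 and 0.37, and GRAMD1B had -0.34. Phospholipid synthesis genes had a median of 0.05 over 16, with 9 above 0 and 7 below. The phosphatidylserine synthase gene PTDSS1 was at 10.2 FPKM with the knockdown and 6.86 FPKM in the control, and PCYT1A had a log2 ratio of -0.27. The median was 0.02 over 13 genes of citrate and NADPH supply and 0.01 over 19 genes of lipogenic control. Of the latter 11 were above 0 and 8 below, and MID1IP1, an activator of acetyl-CoA carboxylase, was at 9.60 and 12.8 FPKM. Genes of LXR and cholesterol efflux had a median of 0.11 over 8 genes, with 5 above 0.

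**Figure D4:**
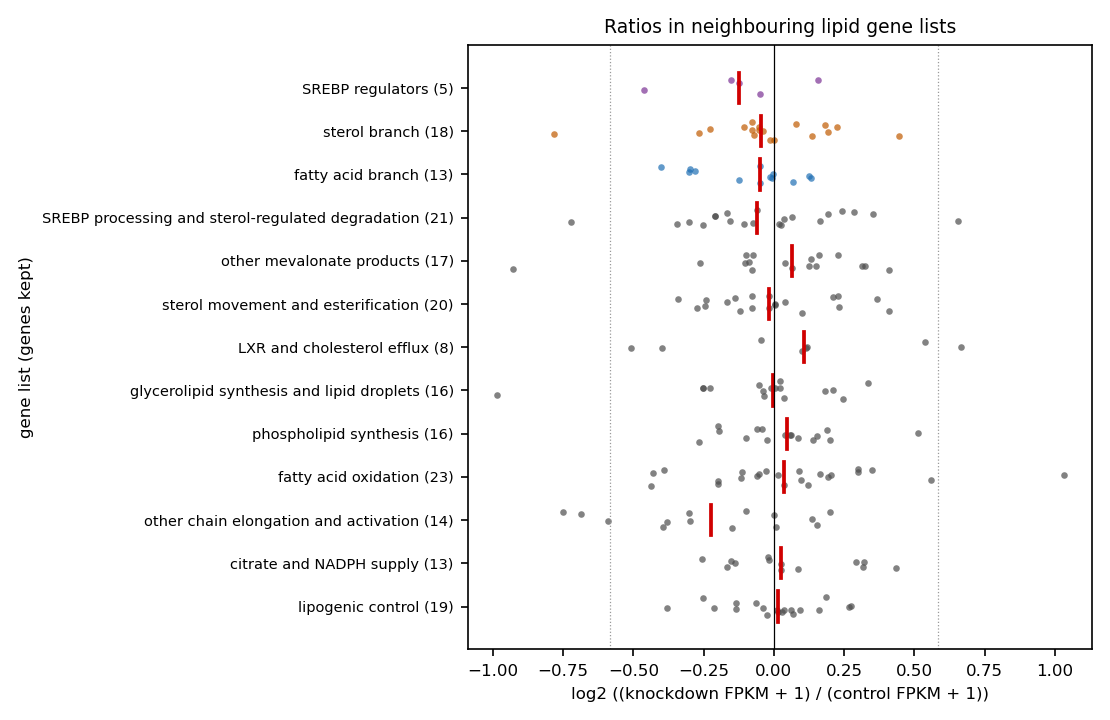
Log2 ratio of each kept gene (points) in the 3 groups of members (coloured) and in 10 neighbouring lists (grey), with the median of each as a red bar, 0 as a solid line and 1.5-fold as dotted lines; the numbers of genes stand in parentheses. The list of other chain elongation and activation genes has the lowest median, -0.22, and the others lie between -0.13 and 0.11.

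Some members share exons with other genes, between which reads were divided by estimate. ACAT2 shares 9.23% of its exon bases with TCP1 on the opposite strand, which was at 44.7 FPKM with the knockdown and 48.3 FPKM in the control. ACAT2 shares more, 26.5% and 33.9%, with other opposite-strand models that were not analysed here. MVK overlaps MMAB on the opposite strand, which was at 6.87 and 6.27 FPKM. In both pairs the partner differed in the same direction as the member. SREBF1 shares 6.92% of its exon bases with a gene on the opposite strand. Antisense models that were not analysed here share 18.6% of the exon bases of FDPS, 15.0% of HMGCS1 and 14.8% of IDI1. GENCODE names 3 pseudogenes after CYP51A1 and 1 each after SCD and FADS2. For CYP51A1, 79.4% of exon bases are shared with another annotated model on the same strand that was not analysed here. MSMO1, INSIG1, PMVK and ELOVL5 share no annotated exon bases with another gene. Overlaps were looked up for the members only, so those of CPT1B, FNTB and the other neighbouring genes were not checked.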

How the data were processed

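The authors deposited 1 table of FPKM per gene for each of the 2 libraries, per the file headers. Tools named in the submitters' processing notes are cutadapt, HISAT2 2.0.5 and StringTie, with the build hg19. For the other versions, the annotation and strandedness, nothing is given in the sources used here. FPKM is relative, so a shift in abundant genes moves every value. StringTie assigns reads of overlapping genes by estimate. Symbols were found for 12903 of 13017 identifiers. GENCODE release 29 (GRCh38) gave lengths and overlaps, by identifier.

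Log2 ratios used a pseudocount of 1 and a filter of 1 FPKM on the mean. Depth was estimated from the lowest FPKM times length of single-transcript genes, as the median within a window of 80 to 100. That window was set after the values were seen and bounds the estimate. It held 14 genes for the knockdown and 10 for the control. Fragments were estimated from the principal transcript's length. The members and lists were chosen with earlier results of these data known. All members are named. The rule for neighbouring lists takes the 3 genes with the largest ratios in each. Some of these are left out of the text, a few others were added, and those printed were picked after their values were seen. Alternatives changed the pseudocount, filter, scaling, summary and overlaps. The code was tested on simulated data. Versions were 3.11.15 for Python, 2.4.6 for numpy, 2.3.3 for pandas, 1.17.1 for scipy and 3.10.9 for matplotlib.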

Additional observations from a re-analysis of the deposited data

How the results depend on the processing

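The log2 ratio of MSMO1 stayed at least 1.5-fold lower under the 3 other pseudocounts and the 4 scalings tried. Leaving MSMO1 out, a choice made after seeing the data, took the count of members 1.5-fold lower from 1 to 0. That outcome was fixed, since MSMO1 was the only member counted. The other 105 recomputed counts, medians and sums kept their value within 1.5 times (counts) or 0.05 on the log2 scale (medians, ratios of sums). That tolerance is about as large as the sterol and fatty acid medians, both -0.05, so staying within it does not set them apart from 0. The log2 ratio of the sterol sums went from -0.04 to -0.002 without MSMO1, with PMVK, the highest of the branch, kept. With the mean instead of the median, the fatty acid value went from -0.05 to -0.09. Of 287 recomputed ratios of single members, 286 stayed within the spread of genes of like expression; FADS1 had -0.65 instead of -0.34 with a pseudocount of 0.1. SC5D, near 0, changed sign under each of the 4 scalings, which put 27 of 38 members below 0 instead of 26. The count of all genes depended on the settings: 66 were 2-fold higher and 73 lower, against 140 and 126 with a pseudocount of 0.1, 19 and 14 with 5, and 31 and 36 with a filter of 5 FPKM. At 1.5-fold, 326 were higher and 269 lower, against 547 and 405, 88 and 96, and 168 and 161. Depth limits ELOVL6, TM7SF2, MVK, STARD4, HSD17B7 and the FADS genes most. Variation between cultures is measured by none of these settings. No paired analysis was possible because each group has 1 library.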
